A study of Mus musculus with 6 samples.

Results

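Reads of 10 genes that prepare and start DNA replication were examined in haematopoietic stem cells (HSCs), the self-renewing cells from which blood arises. The genes were taken by symbol from the deposited expression table, where all 10 were found among 47937 genes. The 8 licensing genes are Mcm2, Mcm3, Mcm4, Mcm5, Mcm6, Mcm7, Cdc6 and Cdt1, and the 2 firing genes are Cdc45 and Mcm10. The cells came from bone marrow of 8-week-old male wild-type C57BL/6 mice, depleted of lineage-positive cells. They were sorted as Kit and Sca-1 positive, Slam1 positive and CD34, Flt3 and CD48 negative cells, and the CD93+ fraction (CD93pos) was separated from the CD93- fraction (CD93neg), CD93 being a receptor on the cell surface. Each group has 3 libraries, described as biological replicates without saying which animals gave which library, so p-values measure the spread between these libraries. The labels give no treatment or transgene, and polyadenylated RNA was sequenced from small inputs. The comparison set the transcripts of the 2 fractions against each other.

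Replication starts in separated steps. In G1 phase the origin recognition complex, with Cdc6 and Cdt1, loads a double ring of the Mcm2 to Mcm7 proteins onto DNA, which licenses the origin. In S phase kinases and helper proteins bring Cdc45 and the GINS complex to the ring, Mcm10 helps to open it, and the active helicase unwinds DNA. Licensing proteins are lost from cells that leave the cell cycle for long, and most adult HSCs rest outside it. E2F transcription factors switch on many of these genes as cells commit to S phase.

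The libraries differed in depth and quality before any gene was compared. Reads assigned to genes numbered 5794528 to 9509304 in CD93pos and 2832653 to 4614396 in CD93neg. CD93neg replicate 1 stood apart, with no read for 71% of the 11805 tested genes (mean normalized count of at least 10), against 2.10% to 26.4% in the other libraries. Transcripts of CD93neg replicates 2 and 3 went against the male label: Xist, transcribed from an inactive X chromosome, stood at 524 and 381 CPM (reads per 1e6 assigned reads), and the 4 Y-linked genes had none. The Y-linked genes summed to 186 to 231 CPM in CD93pos and 0.353 in CD93neg replicate 1, where Xist had no read. Cd93 itself stood at 95.3, 173 and 76.9 CPM in the CD93pos libraries and at 0, 90.8 and 12.7 in the CD93neg libraries, so its transcript overlapped between the groups. The HSC markers, 9 genes with Kit, Hlf and Mecom among them, were all read in 5 of the 6 libraries, and 5 of 9 in CD93neg replicate 1. They summed to 1796 to 2474 CPM in CD93pos and 2390 to 4333 in CD93neg, highest in CD93neg replicate 1, and Hlf was lower in every CD93pos library than in any CD93neg library. Results are therefore given with and without the CD93neg libraries that stand apart.

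The stretches before the gene starts that hold an E2F-type motif are shown because the licensing genes are known E2F targets and their reads are compared as a set. RefSeq (GRCm38.p6) start sites were matched for 9 of the 10 genes. The 250 bases before each start were searched on both strands for TTTCCCGC, TTTCGCGC, TTTGCCGC and TTTGGCGC. A match was present for 4 of the 9 genes, Mcm5, Mcm6, Mcm7 and Cdc6, and for 2.16% of all 27025 genes searched the same way. Capitals mark the matches. In Mcm5 and Mcm6 a match on each strand overlaps the other, which gives a longer run of capitals.
Mcm5, chr8:75109330-75109393, plus strand: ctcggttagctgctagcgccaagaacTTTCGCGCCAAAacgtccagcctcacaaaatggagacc
Mcm6, chr1:128359778-128359841, minus strand: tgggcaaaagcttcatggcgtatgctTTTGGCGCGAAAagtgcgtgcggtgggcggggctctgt
Mcm7, chr5:138172030-138172059, minus strand: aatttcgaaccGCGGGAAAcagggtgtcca
Cdc6, chr11:98907987-98908046, plus strand: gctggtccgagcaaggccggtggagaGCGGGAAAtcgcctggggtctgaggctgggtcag
The Mcm5 and Mcm6 stretches lie outside the gene in GENCODE M21. The Mcm7 stretch lies in an annotated exon of the gene, and the Cdc6 stretch lies within the gene but not in an exon. Mcm6 has a further match closer to its start. No match was found in the windows of Mcm2, Mcm3, Cdt1, Cdc45 and Mcm10. These matches are a description of letters, not of binding.

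All 10 genes were read in each CD93pos library, whereas 4, 6 and 9 of them were read in CD93neg replicates 1, 2 and 3. Of all tested genes, 84.4% were read in every CD93pos library and 29%, 73.6% and 84% in CD93neg replicates 1, 2 and 3. Only 2 of the 10, Mcm5 and Mcm6, were read in all 3 CD93neg libraries, against 23.3% of tested genes. A library without a read of a gene still allows up to 1.06, 0.650 and 0.999 CPM in CD93neg replicates 1, 2 and 3 (3 reads), which covers counting error only. In bulk RNA, fewer cells that carry a transcript and less of it per cell cannot be told apart.

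**Figure D1:**
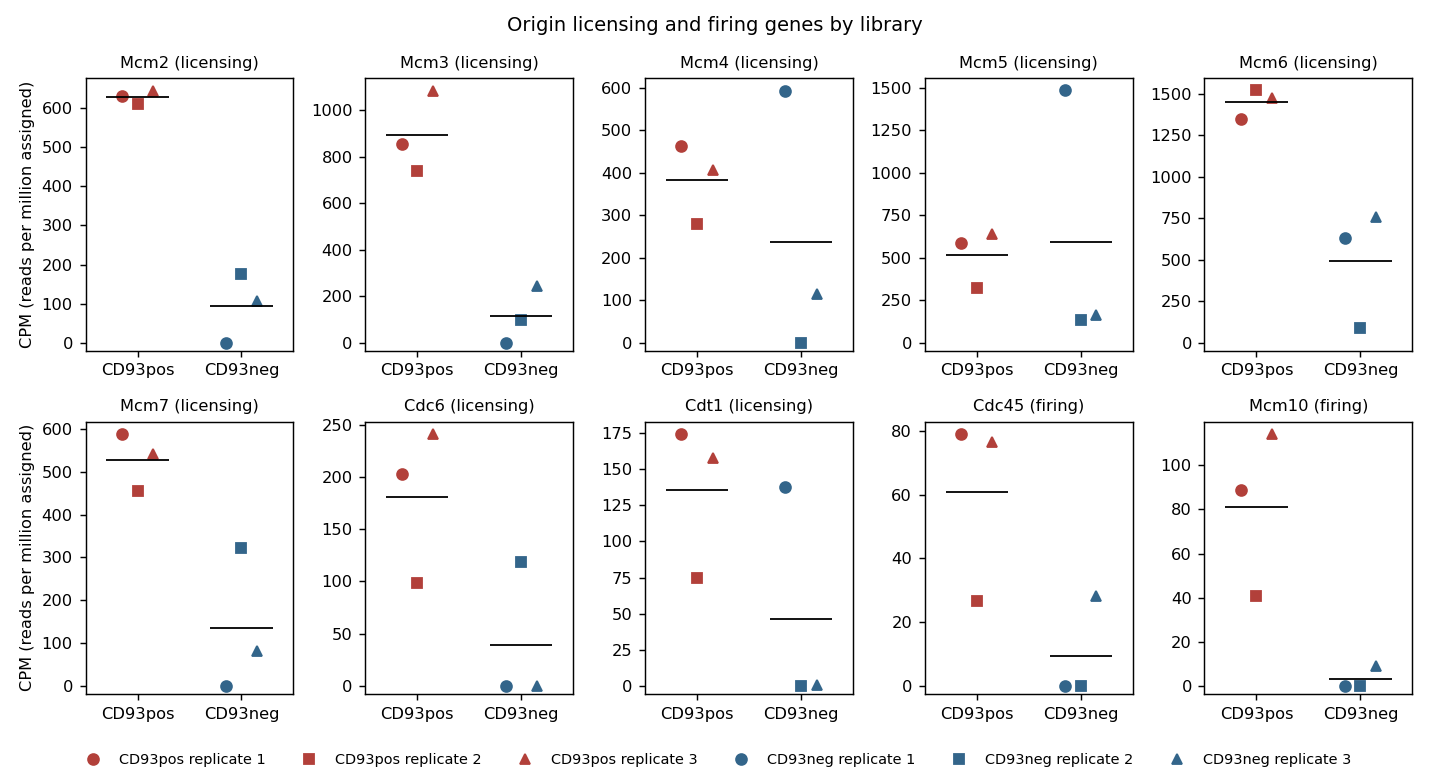
Reads of each of the 10 genes as CPM (linear axis) in the 3 CD93pos and 3 CD93neg libraries. Symbols mark the replicate and lines the group mean. Mcm2, Mcm3, Mcm6, Mcm7 and Mcm10 lie higher in every CD93pos library than in any CD93neg library, while CD93neg replicate 1 is the highest library for Mcm4 and Mcm5.

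The Mcm2 to Mcm7 subunits form the helicase ring, and 4 of them were higher in every CD93pos library than in any CD93neg library, against 18.8% of all tested genes. Mcm2 (ENSMUSG00000002870.8, GRCm38 chromosome 6, 88883474 to 88898780) had 630, 610 and 644 CPM in CD93pos and 0, 175 and 107 in CD93neg. The CD93pos mean was 628 CPM with an SD of 17.3, the smallest SD of the ring genes in that group. Mcm3 (chromosome 1, 20802968 to 20820312) had 857, 738 and 1084 CPM in CD93pos and 0, 99.0 and 245 in CD93neg. Its mean was 893 ± 176 CPM in CD93pos and 115 ± 123 in CD93neg (SD, 3 libraries each), a ratio of 7.78, and 5.19 without CD93neg replicate 1. With all libraries Mcm3 had the largest ratio of group means among the ring genes, and without CD93neg replicate 1 Mcm4 did.

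Mcm6 (chromosome 1, 128331590 to 128359664) was the most abundant of the 10 per length in CD93pos. It had 1351, 1522 and 1473 CPM in CD93pos and 630, 90.8 and 756 in CD93neg, so the lowest CD93pos library lay above the highest CD93neg library. The ratio of the means was 2.94, and 3.42 without CD93neg replicate 1. That library moved the ratio of Mcm6 less than that of any other ring gene. Mcm7 (chromosome 5, 138164583 to 138172422) had 587, 455 and 541 CPM in CD93pos and 0, 322 and 82.2 in CD93neg. It also did not overlap, although its gap was small: CD93neg replicate 2 reached 322 CPM.

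Mcm4 and Mcm5 went the other way in CD93neg replicate 1. Mcm4 (chromosome 16, 15623897 to 15637400) had 463, 279 and 406 CPM in CD93pos and 592, 0 and 116 in CD93neg. Mcm5 (chromosome 8, 75109569 to 75128439) had 586, 325 and 641 CPM in CD93pos and 1488, 136 and 162 in CD93neg. For both genes CD93neg replicate 1 was the highest of all libraries and the other CD93neg libraries lay below every CD93pos library. That library lay above all 3 CD93pos libraries for 13.4% of all tested genes. CD93neg replicates 2 and 3 did so for none of the 10 genes, against 31.6% and 30.6% of tested genes. The Mcm5 means were 517 ± 169 CPM in CD93pos and 596 ± 773 in CD93neg (SD, 3 libraries each), a ratio of 0.869 that became 3.46 without CD93neg replicate 1. For Mcm4 the ratio rose from 1.62 to 6.62 in the same way.

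The 2 loading factors were read unevenly in CD93neg. Cdc6 (chromosome 11, 98907801 to 98923940), the ATPase that joins the origin recognition complex to receive the ring, had 202, 98.2 and 241 CPM in CD93pos. In CD93neg it had 119 CPM in replicate 2 and no read in replicates 1 and 3. Replicate 2 of CD93neg thus exceeded the lowest CD93pos library, and the groups overlapped. Cdt1 (chromosome 8, 122568015 to 122573554), which escorts the ring to the origin, had 174, 74.7 and 158 CPM in CD93pos and 138, 0 and 0.333 in CD93neg. The value of CD93neg replicate 3 is 1 read. Only CD93neg replicate 2 held Cdc6 and only replicate 1 held more than 1 read of Cdt1, so no CD93neg library held more than 1 read of each.

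By mean CPM the firing genes were the least abundant members in each group, and they were unread in 2 of the 3 CD93neg libraries. In CD93neg replicate 3 both lay above Cdt1 (0.333 CPM) and Cdc6 (no read). Cdc45 (chromosome 16, 18780447 to 18811987), which joins the ring as a subunit of the active helicase, had CD93pos reads of 751, 154 and 548 and CD93neg reads of 0, 0 and 85. As CPM these were 79.0, 26.6 and 76.6 against 0, 0 and 28.3, so CD93neg replicate 3 lay just above CD93pos replicate 2. Mcm10 (chromosome 2, 4989714 to 5012791), needed to activate the loaded helicase, had CD93pos reads of 846, 235 and 816 and CD93neg reads of 0, 0 and 27. Its CPM values of 89.0, 40.6 and 114 against 0, 0 and 8.99 did not overlap. The means were 81.2 ± 37.4 and 3.00 ± 5.19 CPM (SD, 3 libraries each), a ratio of 27.1, or 18.1 without CD93neg replicate 1. Of the 10 genes Mcm10 had the largest ratio with all libraries.

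In all, 5 of the 10 genes had every CD93pos library above every CD93neg library (Mcm2, Mcm3, Mcm6, Mcm7 and Mcm10), against 18.8% of all tested genes. The count was 8 of 10 without CD93neg replicate 1, against 22.4% of tested genes, with Mcm4, Mcm5 and Cdt1 added. It was also 8 of 10 without CD93pos replicate 2, against 25.7%, with Cdc6, Cdt1 and Cdc45 added. It was 5 of 10 without CD93pos replicate 1 or 3, against 20.8% and 22.8%. It was 6 of 10 without CD93neg replicate 2 or 3, against 30.7% and 34.8%. Against CD93neg replicate 1 alone it was 7 of 10, near the 69.7% of all tested genes. Mcm2, Mcm3, Mcm6, Mcm7 and Mcm10 did not overlap in any of these sets of libraries. After every library was thinned by a random draw to 2832653 reads, the number in the shallowest, the same 5 genes and Cdc45 did not overlap. Cdc45 parted only by 82 reads in CD93pos replicate 2 against 80 in CD93neg replicate 3. At full depth their CPM stood in the reverse order, at 26.6 and 28.3. The share of all tested genes that did not overlap after thinning was not computed.

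The test over all genes called none of the 10. limma on log2(normalized count + 1), with Benjamini-Hochberg adjustment over 11805 genes, called 0 members and 0 genes in all (0%). At an unadjusted p under 0.05, 4 of the 10 were higher in CD93pos (Mcm6, Cdc6, Cdc45 and Mcm10), against 11.8% of tested genes. edgeR's quasi-likelihood test on the recovered reads also called 0 members and 0 genes. The authors' deposited table, made with DESeq2, holds 0 members with an adjusted p under 0.05, against 5.58% of its genes called higher in CD93pos. DESeq2 on the recovered reads called 0 members too, against 5.97% of its genes in either direction. The authors' deposited table gives no adjusted p for Mcm5, and its smallest among the members is 0.242, for Mcm10.

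All 10 log2 fold changes were above 0, as were those of 79.9% of tested genes. Their median was 5.40 against 2.36 for all tested genes, and 3.43 against 0.43 without CD93neg replicate 1. Mcm10 had the smallest p: the log2 fold change reached 6.56 (limma SE 1.97, adjusted p = 0.162). Mcm6, read in every library, had 1.95 (SE 0.76, limma adjusted p = 0.335), and Mcm5 had 0.54 (SE 0.93, limma adjusted p = 0.760). The values of Mcm2, Mcm3 and Mcm7 (5.26, 5.62 and 4.83) fell to 2.17, 2.47 and 1.66 without CD93neg replicate 1, in which they have no read. Those of Mcm4, Mcm5 and Cdt1 rose instead, from 3.82, 0.54 and 5.54 to 6.16, 1.71 and 8.47. Without CD93neg replicate 2, the library in which Mcm4 and Cdt1 have no read but Mcm5 and Mcm6 do, the values of Mcm4, Mcm5, Cdt1 and Mcm6 fell to 0.37, -0.13, 3.73 and 0.92. For Mcm4 edgeR gave 0.97 and DESeq2 0.50.

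**Figure D2:**
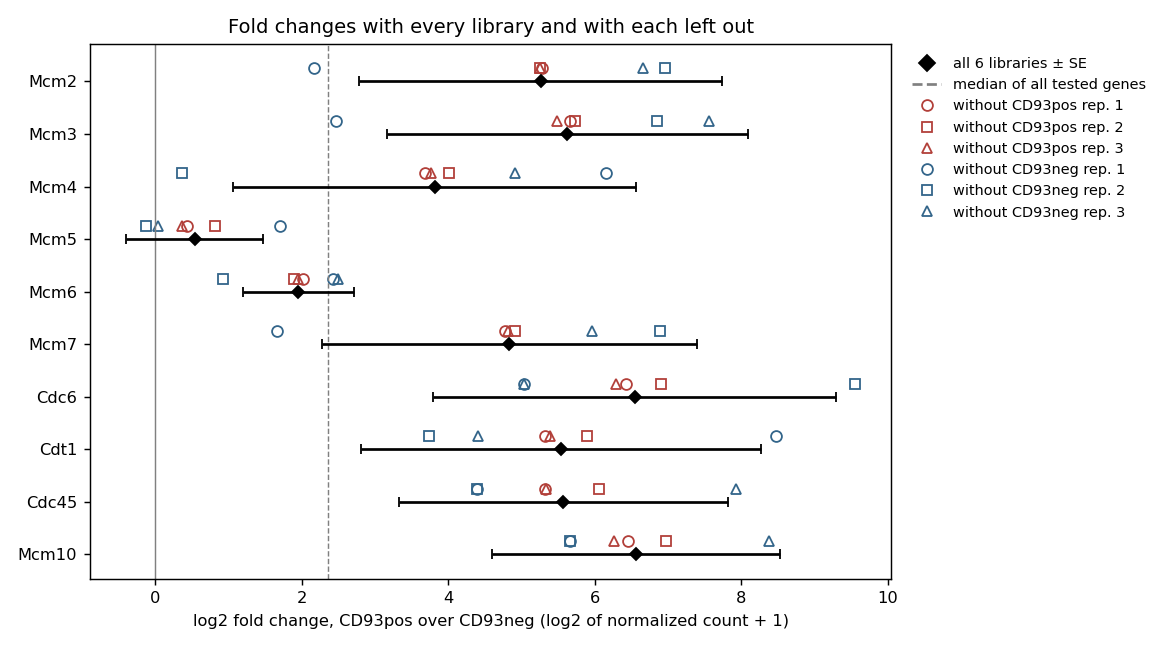
log2 fold change of each gene, CD93pos over CD93neg, on the log2(normalized count + 1) scale. Diamonds with bars are the fit to all 6 libraries with its standard error, open symbols are fits with 1 library left out, and the dashed line is the median of all tested genes (2.36). Leaving out a CD93pos library moved the values least, and leaving out CD93neg replicate 2 took Mcm5 to -0.13.

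Calls of members appeared when libraries were removed. Without CD93neg replicate 3, the 1 CD93neg library with firing reads, Cdc45 and Mcm10 were called higher (log2 fold changes 7.92 and 8.37, limma adjusted p = 0.0129 for each). In that setting 15.9% of all tested genes were called higher and 0.0424% lower. Without CD93neg replicates 2 and 3, the libraries whose Xist reads go against the label, the remaining CD93neg library is assumed to vary like the CD93pos group. There 6 members were called higher (Mcm2, Mcm3, Mcm7, Cdc6, Cdc45 and Mcm10), all unread in CD93neg replicate 1, against 58.2% of tested genes. Mcm5 was called lower (log2 fold change -1.79, limma adjusted p = 0.0468), against 8.61% of tested genes.

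Summed by step, licensing and firing reads each had a higher CPM in every CD93pos library than in any CD93neg library. The 8 licensing genes made up 4851, 4102 and 5188 CPM in CD93pos and 2849, 942 and 1469 CPM in CD93neg. No CD93neg library reached a CD93pos library. The means were 4714 ± 556 and 1753 ± 985 CPM (SD, 3 libraries each), a ratio of 2.69, which ranged from 2.18 to 3.91 with 1 library left out and was 1.65 against CD93neg replicate 1 alone. For Mcm2 to Mcm7 alone it was 2.64. The 2 firing genes made up 168, 67.1 and 191 CPM in CD93pos and 0, 0 and 37.3 CPM in CD93neg. Again the groups did not overlap, with means of 142 ± 65.8 and 12.4 ± 21.5 CPM (SD, 3 libraries each) and a ratio of 11.4. That ratio ranged from 7.61 to 14.4 with 1 library left out, except without CD93neg replicate 3, where the remaining CD93neg libraries hold no firing read. No p is given for these sums, because the members were chosen with earlier results of these data known.

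The balance between the steps did not separate the groups. Firing genes supplied 3.35%, 1.61% and 3.55% of the reads of the 10 genes in CD93pos, and 0%, 0% and 2.48% in CD93neg. The share of CD93neg replicate 3 (95% Wilson interval 2.06% to 2.97%) lay above that of CD93pos replicate 2 (1.46% to 1.78%) and below the other CD93pos shares. The 0 firing reads of CD93neg replicates 1 and 2 stand among 8069 and 4347 reads of the 10 genes, which allows shares of up to 0.0476% and 0.0883% (upper 95% Wilson limits). These limits and intervals cover counting error only, and the reads are not independent molecules. The mean share was 2.83% ± 1.06 in CD93pos and 0.825% ± 1.43 in CD93neg (SD, 3 libraries each). The shares did not overlap without CD93pos replicate 2, without CD93neg replicate 3, or against CD93neg replicate 1 alone.

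**Figure D3:**
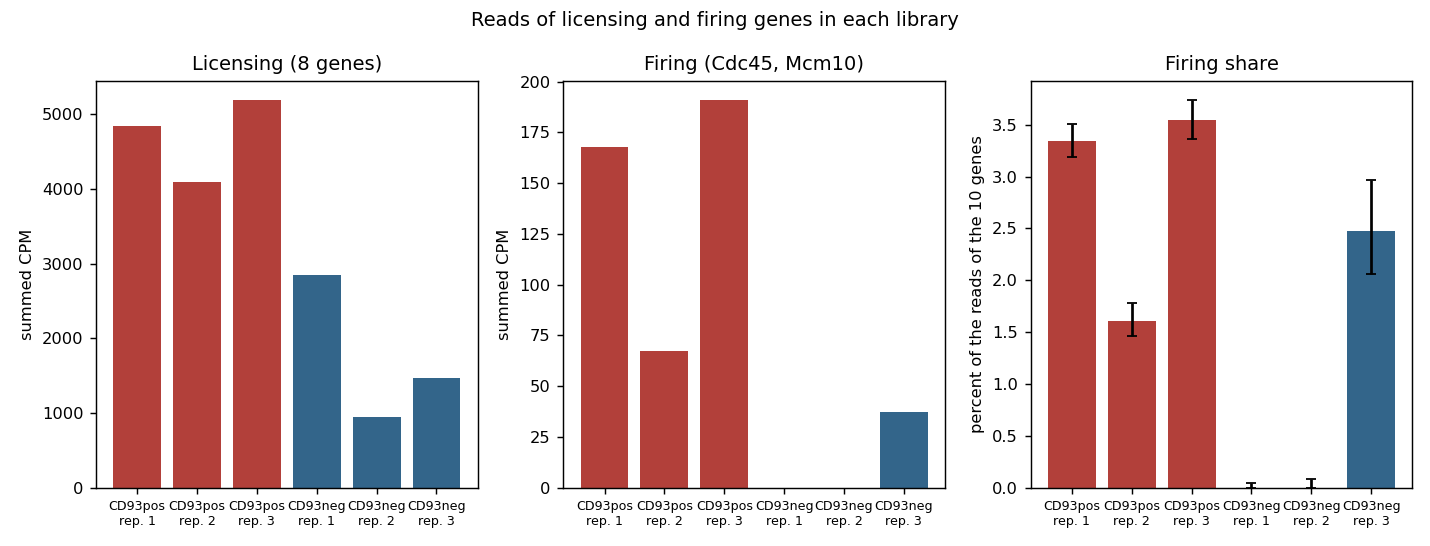
Summed CPM of the 8 licensing genes and of Cdc45 and Mcm10, and the percent of the reads of all 10 genes that come from Cdc45 and Mcm10, for each library. Bars on the shares are 95% Wilson intervals. The lowest CD93pos licensing sum (4102) is above the highest CD93neg sum (2849), while the firing share of CD93neg replicate 3 (2.48%) is above that of CD93pos replicate 2 (1.61%).

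The ring contains its 6 subunits in equal number, so their transcripts were compared per length, as RPKM (CPM per kilobase of annotated exon). That length joins all annotated exons of a gene, so ranks and shares depend on it. Which exons these cells use was not tested. In CD93pos, Mcm6 ranked first with 311 ± 18.9 RPKM and Mcm3 second with 238 ± 46.9 (SD, 3 libraries each). The SD ranges of these 2 genes stayed apart. Mcm5, Mcm7 and Mcm4 followed with 130 ± 42.3, 119 ± 15.2 and 107 ± 26.2 RPKM, which overlapped each other within their SD. Mcm2 was the lowest ring gene on average, with 90.3 ± 2.49 RPKM, but it has the most annotated exon bases of the ring (6956). By mean CPM in CD93pos, Mcm2 (628) lay above Mcm7 (528), Mcm5 (517) and Mcm4 (383). The loading factors Cdt1 and Cdc6 came next with 43.2 ± 17.0 and 34.5 ± 14.1 RPKM, within each other's SD. The firing genes Cdc45 and Mcm10 were last with 17.3 ± 8.44 and 10.6 ± 4.86 RPKM, and their SD ranges overlapped.

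Each CD93pos library had the same 2 leading subunits, and each CD93neg library had a different first one. Mcm6 supplied 28.5%, 37.4% and 28.9% of the summed ring RPKM in CD93pos, followed by Mcm3 with 22.5%, 22.5% and 26.4%. The lowest subunit held 8.47% to 8.92%, and the highest exceeded the lowest by 3.20 to 4.19 times. In CD93neg replicate 1 only Mcm4, Mcm5 and Mcm6 were read, and Mcm5 supplied 55.4%. In CD93neg replicate 2 Mcm7 led with 40.9% and Mcm4 was unread. CD93neg replicate 3 was led by Mcm6 with 48.5% and Mcm3 with 19.5%, the order seen in CD93pos, but its highest subunit exceeded its lowest, Mcm2, by 10.5 times. By CPM the lowest ring gene of that library was Mcm7 (82.2), below Mcm2 (107).

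**Figure D4:**
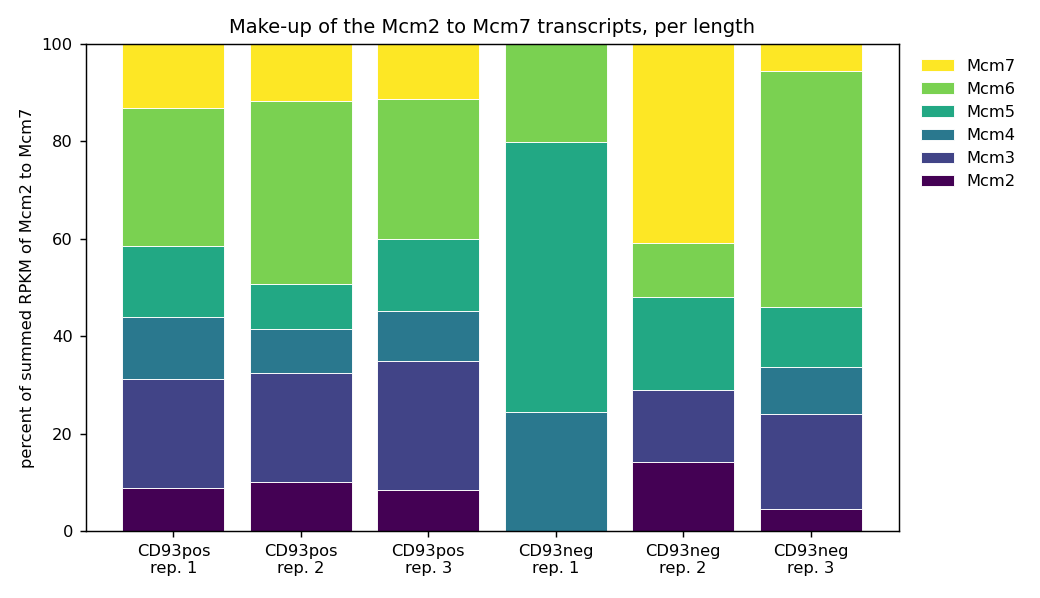
Share of each subunit gene in the summed RPKM of Mcm2 to Mcm7 (percent, stacked to 100) in the 6 libraries. The CD93pos libraries resemble each other, with Mcm6 first (28.5% to 37.4%), while Mcm5, Mcm7 and Mcm6 lead in CD93neg replicates 1, 2 and 3.

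Reads of overlapping neighbours could bear on the values of Mcm7 and Cdc45, because the strand setting of the counting is not given in the sources used here. Mcm7 shares 321 of its 4426 exon bases with Ap4m1 and 64 with Cops6, both on the opposite strand. Its exons also include Mir25 and Mir93, with no assigned read in any library. Cdc45 shares 209 of 3506 exon bases with Ufd1, which starts 208 bases away on the opposite strand and had CD93pos reads of 1465, 1012 and 1149 and CD93neg reads of 0, 1908 and 426. Ufd1 was thus frequent in CD93neg replicate 2, where Cdc45 had no read. Mcm4 shares no exon base with Prkdc, which starts 466 bases away in the opposite direction and encodes a DNA repair kinase. Prkdc had CD93pos reads of 327, 203 and 524 and CD93neg reads of 0, 0 and 38, so CD93neg replicate 1 read Mcm4 (1678 reads) without its neighbour.

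The other genes of replication start were described from 7 lists with 46 genes, of which 45 were tested. limma called 0 of them in either direction (0% of all tested genes), with 17 of 45 higher at an unadjusted p under 0.05, against 11.8% of tested genes. Every tested one had a log2 fold change above 0, with a median of 4.40, against 79.9% of tested genes and their median of 2.36. Without CD93neg replicate 1 the median was 2.91, against 0.43, and 1 gene, Rif1, turned to -0.09. By mean CPM, Rif1 and E2f2 were higher in CD93neg (ratios 0.956 and 0.398). No read in CD93neg but reads in every CD93pos library were found for 4.6% of tested genes, for none of the 10 members and for Orc1, Orc2, Gins3, Recql4, Pole2 and Pola1 among the others. In 26 of 45 the CD93pos libraries all lay above the CD93neg libraries, against 18.8% of tested genes. The authors' deposited table calls 8 of them higher, against 5.58% of its genes.

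The origin recognition complex marks origins and receives the ring. Its 6 genes were all tested, and none passed (median log2 fold change 3.99, and 1.47 without CD93neg replicate 1). Orc1 and Orc2 had no read in any CD93neg library, against 187, 223 and 379 and 651, 464 and 784 reads in CD93pos. Set against 3 reads in the whole CD93neg group as the floor, they were at least 122-fold and 295-fold higher in CD93pos, each with limma adjusted p = 0.0558. Orc6 had 5.07 times the CPM in CD93pos and did not overlap. Orc3, Orc4 and Orc5 overlapped, with log2 fold changes of 3.41, 3.12 and 3.02 that were 0.37, 0.18 and 0.13 without CD93neg replicate 1. The complex was thus uneven: its summed CPM was 535 to 635 in CD93pos and 0, 221 and 517 in CD93neg.

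The GINS complex is the other cofactor of the active helicase, beside Cdc45. None of its 4 genes passed (median log2 fold change 4.33), and all 4 were higher without overlap in CD93pos, against 18.8% of tested genes. The median was 2.64 without CD93neg replicate 1. Gins3 had no read in CD93neg and was at least 183-fold higher in CD93pos (554, 185 and 440 reads, limma adjusted p = 0.0558). Gins1 had CD93pos reads of 427, 88 and 201 and CD93neg reads of 0, 0 and 38, the same pattern of unread libraries as Cdc45 and Mcm10. Gins2 and Gins4 were read in CD93neg replicates 2 and 3, at ratios of 3.87 and 2.15. Counting Mcm2 to Mcm7, Cdc45 and the GINS genes as the active helicase, each CD93pos library held reads of every subunit. CD93neg replicate 3 lacked Gins3 alone, and CD93neg replicates 1 and 2 lacked Cdc45, Gins1 and Gins3 and at least 1 ring subunit.

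Among the 8 firing kinases and activators none passed (median log2 fold change 4.08). Recql4, a helicase needed for origin firing, had no CD93neg read and 132, 127 and 121 in CD93pos, at least 58.9-fold higher (limma adjusted p = 0.0558). Mtbp, a partner of the firing factor Ticrr, had no CD93neg read and 285, 0 and 115 in CD93pos, and Donson had log2 fold change 4.08. Mtbp overlapped through the 0 of CD93pos replicate 2. Of 8 licensing control genes none passed (median 4.49, and 1.78 without CD93neg replicate 1). Gmnn, the inhibitor of Cdt1, had CD93pos reads of 911, 299 and 736 and CD93neg reads of 0, 0 and 83. Skp2, which targets Cdt1 for destruction, had 654, 497 and 408 against 0, 201 and 0, and Ddb1 had a log2 fold change of 4.58.

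Of 10 fork partners none passed (median log2 fold change 5.49). Pole2, a subunit of the leading strand polymerase, had no CD93neg read and 585, 371 and 589 in CD93pos, at least 240-fold higher (limma adjusted p = 0.0558). Pola1, the catalytic subunit of the priming polymerase, was likewise unread in CD93neg. Prim1, the primase, had CD93pos reads of 2120, 1324 and 2216 and CD93neg reads of 0, 0 and 72. The bounds against the floor, here and for Orc1, Orc2, Gins3 and Recql4, were 1.79 times lower without CD93neg replicate 2, the deepest CD93neg library.

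Of 7 E2F factors none passed (median log2 fold change 4.13). E2f4, a factor that mostly represses in resting cells, had CD93pos reads of 941, 279 and 670 and CD93neg reads of 0, 0 and 10 (limma adjusted p = 0.0845). E2f3, an activator, had 203, 27 and 116 against 1, 0 and 0, and E2f8 had 759, 178 and 304 against 0, 209 and 0. E2f1 overlapped, with 33.3, 28.8 and 19.6 CPM in CD93pos and 0.706, 24.5 and 5.99 in CD93neg. The MCM relatives Mcm8 and Mcm9 act in DNA repair and do not belong to the ring. Mcm8 had CD93pos reads of 504, 200 and 835 and CD93neg reads of 2, 0 and 0 (limma adjusted p = 0.0558). Mcm9 had 306, 6 and 143 against 11, 0 and 19, and Mcmdc2 was below the filter.

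**Figure D5:**
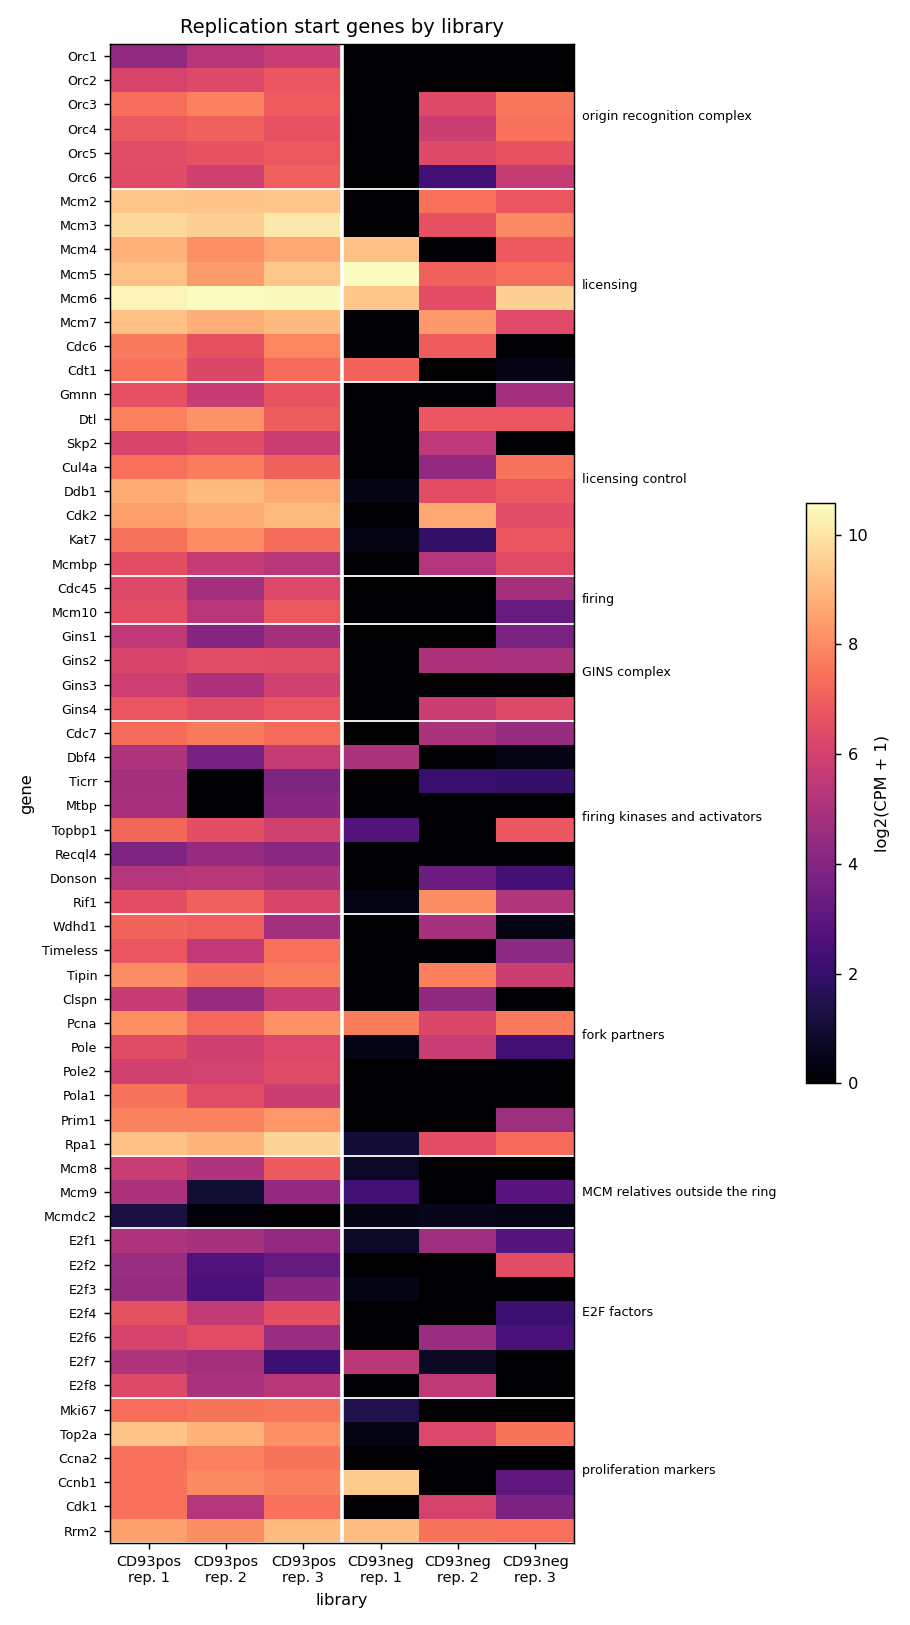
log2(CPM + 1) of the 10 genes, the 46 other replication genes and 6 proliferation markers (rows, grouped by role) in the 6 libraries (columns). Black cells have no or almost no reads. CD93neg replicate 1 has no read for any gene of the origin recognition complex or of GINS, while its Mcm4, Mcm5 and Mcm6 reach levels of the same order as in CD93pos.

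Markers of proliferation and of other cell types also differed between the libraries. The 6 proliferation markers summed to 1422 to 1648 CPM in CD93pos and to 1254, 322 and 376 in CD93neg, and none passed. Ccna2, an S phase cyclin, had no read in CD93neg, and Mki67 had 5, 0 and 0 reads there against 1065 to 1545 in CD93pos. Ccnb1, a mitotic cyclin, and Rrm2, a subunit of the enzyme that makes deoxynucleotides, stood at 688 and 564 CPM in CD93neg replicate 1, above every CD93pos library, as Mcm4 and Mcm5 did. The 7 mast cell and basophil markers summed to 635 to 1405 CPM in CD93pos and 0.353 to 354 in CD93neg, where Prss34, Mcpt8, Ms4a2, Fcer1a and Hdc were at 0. Cpa3 did not overlap, but Gata2 did, at 540, 348 and 310 CPM in CD93pos and 0.353, 327 and 245 in CD93neg. Gata2 made up most of the sum of CD93pos replicate 1, where Prss34 stood at 11.5 CPM and Mcpt8 at 0.736. The 7 erythroid markers summed to 294 to 616 CPM in CD93pos and 6.93 to 228 in CD93neg, where Klf1 was at 0. Alas2 was at 0 in 5 of the 6 libraries, and Hba-a1, Hba-a2, Hbb-bt, Epor and Car1 overlapped between the groups. Car1 made up the 228 CPM of CD93neg replicate 1. Epor stood at 66.6 CPM in CD93neg replicate 3, above every CD93pos library (59.3, 25.7 and 45.6). Both lists are of cells that divide while they mature. Their part in the replication genes was not tested.

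Neutrophil and B lineage markers were frequent in CD93neg replicates 2 and 3. All 10 neutrophil markers were read there, at 12686 and 9198 CPM, against 2.93 to 279 in CD93pos and 0 in CD93neg replicate 1. The 9 B lineage markers had 13613 and 36722 CPM there, against 178 to 200 in CD93pos. Of these, Cd79a, Pax5, Ms4a1 and Ebf1 were at 0 in CD93pos. Cd79b (61.4, 62.8 and 48.8 CPM), Cd74 (105, 91.3 and 103) and Ighm (10.6, 29.5 and 24.2) were read in every CD93pos library. In CD93neg replicate 1 the 9 markers summed to 0.706 CPM. In that replicate, where both lists were at or near 0, the licensing sum was 2849 CPM and the firing sum 0, both below every CD93pos library. The same replicate had no read for 71% of all tested genes. With the reads of the 2 lists left out of the total, the ratio of licensing sums was 2.64. That step took out the listed markers only, so other transcripts of such cells stayed in the total and in the sums. The part of neutrophil and B lineage cells in the replication genes was not tested. The 6 megakaryocyte markers had 1551 to 2284 CPM in CD93pos and 811 to 1626 in CD93neg, and the 5 T cell markers at most 17.3 and 16.7.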

How the data were processed

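Per the submitters' processing notes, the tools included STAR, featureCounts (Subread 1.5.0-p1) and DESeq2 1.26, and the builds named are GRCm38 and mm10. How strand was counted, and with which annotation, is not given in the sources used here. In the deposited signal table each library's gene counts are divided by its own size factor. The authors also deposited a table with each gene's mean signal, log2 fold change and its standard error, Wald score, p-value and adjusted p-value. Whole reads were recovered from the steps of the signal for 100% of values above 0 (tolerance 0.001). Symbols come from the authors' table. Positions and exon lengths come from GENCODE M21, where 47224 of 47937 IDs were found.

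limma 3.58.1 (trend) was run on log2(normalized count + 1) of genes whose mean normalized count was 10 or more. Tests were 2-sided, at 0.05 on the Benjamini-Hochberg adjusted p. Fold changes on this scale are large where a library is at 0. edgeR 4.0.16 and DESeq2 1.42.0 (R 4.3.3) on recovered reads, other pseudocounts, filters and scalings, a replicate block and leaving out each library were alternatives. The script was tested on simulated counts with the same spread in every library. No simulated library was as sparse as CD93neg replicate 1, so that test does not cover such a library. Leaving out CD93neg replicates 2 and 3 together, library quality weights and CPM without neutrophil and B lineage markers were chosen after seeing the data. Members and lists were chosen with earlier results of these data known. For that reason the exact permutation tests planned for the summed reads are not printed. Named genes were the 10 members and, per other replication list, up to 3 with the smallest p, or all of a list of 4 or fewer. Orc3, Orc4, Orc5, E2f1, E2f2, Rif1, the neighbouring genes and single markers were added after their values were seen. CPM are counts per 1e6 assigned reads. 1 erythroid marker is not reported here and is left out of its list.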

Additional observations from a re-analysis of the deposited data

How the results depend on the processing

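limma called 0 members and 0 of 11805 genes. Genes called numbered 206 with a pseudocount of 0.5, 705 with DESeq2, 0 to 1880 with 1 library left out, and 7892 without CD93neg replicates 2 and 3. Members called numbered 0 to 2 with 1 library left out, and 7 without CD93neg replicates 2 and 3. The log2 fold change of Mcm5 turned to -0.39 with DESeq2, -0.13 without CD93neg replicate 2 (up to 1.71 with another library left out) and -1.79 without CD93neg replicates 2 and 3. In the last setting Mcm4 turned to -0.87 and Cdt1 to -0.33. The cause was not tested. The remaining log2 fold changes of members were above 0 under each alternative run. The differences in licensing CPM (2555 to 3508 with 1 library left out), firing CPM (105 to 167) and firing share (1.60 to 2.83 percentage points) kept their direction under each alternative run, with a licensing difference of 1865 CPM and a firing share difference of 2.83 against CD93neg replicate 1 alone. With the replicate block 24 genes were called and 1 member, Mcm6 (limma adjusted p = 4.6e-05). Same-numbered libraries correlated at 0.037, 0.019 and 0.061 in their deviations from the group means, each library best with its own number, but all under 0.1, so the numbers were not taken to pair the samples. Quantile normalization moved the median log2 fold change of all tested genes from 2.36 to 0.02.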
